A study of Mus musculus with 5 samples.

Results

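The step from day 2 to day 5 in mouse embryonic fibroblasts (MEFs) kept in conversion medium was measured as the ratio between 2 RNA sequencing libraries, the library labelled day 5 and the library labelled day 2. The ratio was formed for 12285 genes, those that reached 10 expected counts on at least 1 of the 2 days, of the 27729 genes in the files and of 13346 genes that reached 10 counts in 1 or more of the 5 libraries of the series. The cells were ICR fibroblasts taken from embryos without head and internal organs, a mixed primary culture and not a clone. They grew in serum-containing MEF medium until day 0 and then in a medium that the study calls 5C and the sample labels call 6C. The study's 5C is a serum-free medium of DMEM/F12 with N2 supplement (insulin, transferrin, selenite), bFGF, LIF, vitamin C and 2-mercaptoethanol, and whether the labels' 6C had the same composition is not given in the sources used here. A library was made on day 0, day 2, day 5, day 10 and day 14, so day 2 and day 5 differ by 1 library on each side and no test between them was possible. Intervals given below are exact 95% (Clopper-Pearson) intervals of the ratio of 2 counts. They cover counting error only, not the spread between cultures, and reads made by PCR are not independent molecules.

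Fibroblasts that leave serum are known to lose actin stress fibres and the smooth muscle genes driven by serum response factor, and to leave the cell cycle. LIF signals through a receptor of Lifr and Il6st to STAT3, bFGF signals through FGF receptors to the MAP kinases, and insulin signals through the insulin and IGF receptors. Embryonic mesenchyme also holds derivatives of the neural crest, a population that gives rise to Schwann cells, melanocytes and connective tissue and that is marked by Sox10 and Ngfr.

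The libraries held 3890334, 2253748, 3392356, 3885124 and 3362149 expected counts for days 0, 2, 5, 10 and 14, so the day 2 library was the shallowest and set most of the counting error. The day 2 library also stood apart in its content. Gm42418, a long non-coding locus known to hold ribosomal RNA sequence, took 4.79% of its counts and Lars2, a mitochondrial leucyl-tRNA synthetase, took 1.36%, and both together took at most 0.175% of any other library. Leaving both genes out of the library sizes left 2246 genes higher and 1495 lower, the same counts as with them. Short genes were lower on day 5 relative to long genes. Over 5 classes of 2457 genes ordered by length, the median log2 ratio was -0.72, -0.04, 0.20, 0.37 and 0.48 from the shortest class to the longest. The shortest class (up to 1436 bases) held 35.2, 39.4, 25.5, 15.1 and 18.9% of the counts for days 0, 2, 5, 10 and 14. Whether transcript length had a part in any single ratio was not tested, and the ratio relative to the median of 20 length classes is given below beside many of the lists.

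After scaling by trimmed mean of M values (TMM), 2246 genes were over 2-fold higher on day 5 than on day 2 (18.3% of those compared) and 1495 were over 2-fold lower (12.2%). The median log2 ratio of all genes was 0.12. Scaling by plain library totals moved that median by 0.45 and gave 3902 genes higher and 754 lower, and the TPM values, which were scaled to the sum over all genes and their lengths, moved it by 0.79 and gave 5626 and 391. The share of called genes that were higher was thus 60.0% with TMM, 83.8% with plain totals and 93.5% with TPM, and the lists below are read against the median of all genes. Ratios were formed on the log2(normalised count + 1) scale, which understates the change of genes with few counts, and a normalised count compares 1 gene between libraries but not 1 gene with another. Below, 5 normalised counts in a row stand for days 0, 2, 5, 10 and 14, and the number in parentheses after them is the log2 ratio of day 5 over day 2 with its counting interval, which was taken without the added count. For genes at 0 counts on day 2, a fold given as at least a value sets day 2 to 3 counts. It leaves out the counting error of day 5, so the lower end of an exact interval lies below it. In bulk RNA, fewer cells of a type and less RNA per cell cannot be told apart.

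**Figure D1:**
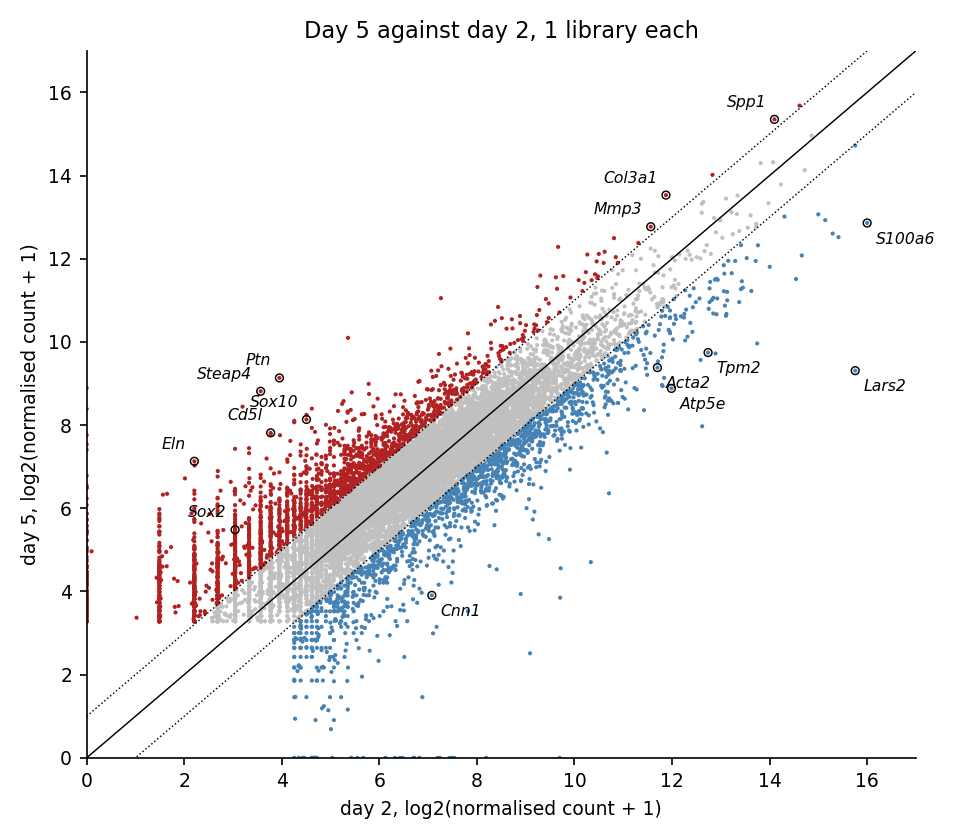
Each point is 1 of the 12285 genes, with log2(normalised count + 1) in the day 2 library on the x axis and in the day 5 library on the y axis. Red points are the 2246 genes over 2-fold higher on day 5, blue points the 1495 genes over 2-fold lower, the solid line marks equal counts and the dotted lines mark 2-fold; circles mark genes described in the text.

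Among the 15 genes with the largest ratios and 100 or more counts, 4 neither overlapped another gene nor shared 50% or more of their 50-base transcript windows with other genes. Steap4, a metalloreductase of iron and copper uptake on chromosome 5 (mm10, 7960457 to 7982213), had 1.98, 10.8, 449, 1240 and 792 (5.25, interval 4.24 to 6.82). Ptn, a heparin-binding growth factor of developing nerve and bone on chromosome 6 (36714929 to 36810220), had 68.3, 14.5, 561, 1273 and 1509 (5.18, interval 4.29 to 6.49). Eln, the elastin gene on chromosome 5 (134702593 to 134747323), had 52.5, 3.62, 139, 209.9 and 190.4 (4.92, interval 3.39 to 8.32), with 2 reads on day 2. Ptn and Eln had been higher on day 0 than on day 2, Steap4 had not, and all 3 stayed high on days 10 and 14. The other, the splicing factor gene Rnps1, was at 0 counts on day 2 and at 84.9, 0, 89.7, 79.8 and 101 across the series, at least 16.5-fold higher on day 5 than on day 2. Of its 50-base windows, 10.8% also occur in Gm9825, to which all 243 day 2 counts of the pair were assigned. In the day 5 library Gm9825 took 309.5 of the pair's 412 counts. After TMM scaling the sum of both genes was not higher on day 5. The ratio of Rnps1 alone is thus uncertain. Has2, the hyaluronan synthase of fibroblasts, had 70.3, 3.64, 129.5, 371 and 113 (4.82, interval 3.28 to 8.22), and an antisense gene overlaps it.

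The other 10 of these 15 genes were also uncertain because reads could be divided between near-identical or overlapping genes. Gm10184 went from 0 to 540.2 expected counts while its parent gene Kpna2, an importin, went from 263 to 16.4, and the sum of both had a log2 ratio of 0.03. Rnaset2b and Rnaset2a traded counts in the same way, with a log2 ratio of -0.52 for their sum. Reads of the Ugt1a cluster, whose 9 genes share their last exons, were 239 normalised counts on day 2 and 954 on day 5 in all, so the cluster as a whole was higher although the split to Ugt1a6a is uncertain. Of the 15 genes with the smallest ratios, 11 overlapped or resembled another gene. LTO1 went from 6282 to 249.9 normalised counts beside the cyclin gene Ccnd1 that it overlaps (1796 to 2133), and the sum of both had a log2 ratio of -1.76. The 4 others were Gm42418 (log2 ratio -7.09), Lars2 (-6.45), Gm26917 (-5.16), which lies next to Gm42418 on chromosome 17, and Gm1673 (-4.29). The extremes of the step thus held few protein-coding genes with reads of their own.

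Actin and contractile genes, which build the stress fibres of fibroblasts and the contractile apparatus of smooth muscle, were lower on day 5, although on the TPM scale their median was 0.10, or -0.69 after the shift of all genes. Of 25 members, 12 were over 2-fold lower and 1 over 2-fold higher, with a median log2 ratio of -0.94. Relative to length class 15 were lower and 1 higher, with a median of -1.13. Their summed normalised counts were 179568, 106322, 36252, 29657 and 34965, so that the level was already lower on day 2 than on day 0, lower again on day 5 and close to that afterwards. Acta2, smooth muscle actin, had 32045, 3325, 666, 253 and 142 (-2.32, interval -2.44 to -2.20). Tpm2, a tropomyosin of stress fibres, had 9641, 6831, 857, 214 and 147 (-2.99, interval -3.10 to -2.89). Cnn1, the smooth muscle calponin, had 357, 134, 14.0, 10.7 and 2.68 (-3.17, interval -4.14 to -2.46). Acta2 was already far below its day 0 level on day 2, whereas most of the decline of Tpm2 came between day 2 and day 5. Actb, a cytoplasmic actin, had 27026, 36111, 7786, 5870 and 9170 (-2.21, interval -2.25 to -2.18). Actg1, the other cytoplasmic actin, had 26739, 20227, 8268, 6197 and 8625 (-1.29, interval -1.33 to -1.25). Myl6, a light chain of non-muscle myosin, had 12176, 10893, 2468, 1161 and 1957 (-2.14, interval -2.21 to -2.08), but its transcript is short and its ratio relative to length class was -0.92. The member that was higher was Mylk, the myosin light chain kinase, with 99.0, 18.1, 56.9, 98.5 and 90.4 (1.60, interval 0.68 to 2.78).

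CArG boxes, which bind serum response factor, are shown because they mark known targets of that factor in this group. A box was searched as CC, 6 bases of A or T, and GG in the 250 bases before each annotated start of the RefSeq promoter table (GRCm38.p6). It was found in 7 of the 22 contractile genes that matched the table (31.8%), in 1.41% of the compared genes with a window and in 1.62% of all 27025 genes of the table. Of the 9 matched members over 2-fold lower on day 5, 5 held a box, and of the 13 others 2 did, Srf and Vcl. The windows of those 5 genes follow with the box in capitals and up to 30 bases on each side. Fhl2 has a box at 2 of its starts, and the box of Myl6 belongs to 1 of its starts.
Actg1, chr11:120348546-120348615, minus strand, box beginning 90 bases before the start: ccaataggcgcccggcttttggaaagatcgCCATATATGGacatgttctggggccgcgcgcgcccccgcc
Cnn2, chr10:79988514-79988583, plus strand, 56 bases before: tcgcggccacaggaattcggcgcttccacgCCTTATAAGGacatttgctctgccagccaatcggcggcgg
Fhl2, chr1:43163962-43164022, minus strand, 31 bases before: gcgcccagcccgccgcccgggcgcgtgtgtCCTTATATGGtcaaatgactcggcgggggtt
Fhl2, chr1:43196818-43196887, minus strand, 96 bases before: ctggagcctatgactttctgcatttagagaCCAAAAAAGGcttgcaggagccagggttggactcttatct
Myl6, chr10:128493020-128493089, minus strand, 50 bases before: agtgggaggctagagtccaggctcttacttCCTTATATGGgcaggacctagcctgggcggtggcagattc
Myl9, chr2:156775273-156775342, plus strand, 161 bases before: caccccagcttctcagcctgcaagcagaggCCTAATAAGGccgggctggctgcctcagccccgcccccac
These matches are a description of letters near the start, and no binding was measured. Cnn2, a calponin, had 3280, 1639, 512, 543 and 464 (-1.68, interval -1.83 to -1.53). Fhl2, a LIM protein of focal adhesions, had 925, 239, 83.1, 47.8 and 60.8 (-1.51, interval -1.92 to -1.13). Myl9, the smooth muscle myosin light chain, had 2484, 688, 242, 156 and 56.3 (-1.50, interval -1.73 to -1.28). All 3 were highest on day 0 and lower on day 5 than on day 2. Srf, which encodes serum response factor, had 324, 291, 151, 116 and 172 (-0.94, interval -1.26 to -0.63), just inside 2-fold. Cnn1, Tpm2 and Acta2, the 3 members with the lowest ratios, had no box in this window, and Tagln, Actg2 and Actb are not in the table.

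S100 and annexin genes, calcium-binding proteins of the cell cortex, held 9 members over 2-fold lower and 2 higher of 18, with a median of -0.75 that became 0.32 on the TPM scale (-0.47 after the shift of all genes). Relative to length class 4 were lower and 3 higher (median -0.30). S100a6 had 38044, 65491, 7426, 2172 and 3128 (-3.14, interval -3.17 to -3.11), and its ratio relative to length class was -1.91. S100a4, also used as a fibroblast marker, had 8624, 12641, 2393, 1178 and 1626 (-2.40, interval -2.47 to -2.34). Anxa2, an annexin of the plasma membrane, had 13059, 9094, 3957, 3682 and 6597 (-1.20, interval -1.26 to -1.14). Both S100 genes were highest on day 2 and Anxa2 on day 0. Anxa11 was listed at 0 counts on day 2 against 211 on day 5, and it overlaps an antisense gene.

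Genes of glycolysis and glucose uptake held 4 of 17 members over 2-fold lower and 1 higher, with a median of -0.68 that became 0.21 on the TPM scale (-0.58 after the shift). Eno1, enolase, had 9444, 5308, 1405, 530.3 and 505 (-1.92, interval -2.01 to -1.83). Pkm, pyruvate kinase, had 14251, 10912, 5132, 2212 and 1953 (-1.09, interval -1.14 to -1.04). Gapdh had 24212, 7110, 4439, 1833 and 2896 (-0.68, interval -0.74 to -0.62). All 3 were lower at each sampled day up to day 10. Hk2, an inducible hexokinase, was the member that was higher, with 168, 16.3, 56.9, 32.1 and 25.0 (1.74), although its day 0 level was above both.

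Nuclear genes of oxidative phosphorylation, the subunits of the respiratory chain and ATP synthase, were lower in 50 of 77 members and higher in 1, with a median log2 ratio of -1.22. Their median transcript length was 667 bases, against 2536 for all genes. Relative to genes of the same length 11 were over 2-fold lower and 3 higher, with a median of -0.30, where the shares of all genes were 9.82% lower and 15.0% higher. The 1 higher member, Atp5g2, shares its sequence with Gm10175, so the split of reads between them is uncertain. The sum of the pair was 658 expected counts on day 2 and 863 on day 5, before scaling. The library sizes after TMM were 1821424 and 3765768, so the scaled sum was lower on day 5. Atp5l shares sequence with Gm10221 in the same way. It went from 221.9 to 820.3 expected counts while the sum of that pair went from 935 to 849. The members split by length. Atp5e, a small subunit of ATP synthase, had 1338, 4061, 471, 232 and 392 (-3.11, interval -3.25 to -2.97). Ndufa2 of complex I had 1559, 3583, 490.0, 228 and 324 (-2.87, interval -3.01 to -2.73). Both peaked on day 2. The long catalytic subunits of the same ATP synthase stayed close to their day 2 level. Atp5a1, the alpha subunit, had 2733, 2502, 2101, 1745 and 1873 (-0.25, interval -0.35 to -0.16). Atp5b, the beta subunit, had 7503, 3994, 3425, 2257 and 2815 (-0.22, interval -0.30 to -0.15). Cox4i1 of complex IV had 3556, 3986, 1540, 807 and 1057 (-1.37, interval -1.46 to -1.28), and its ratio relative to length class was -0.14. Genes of the mitochondrial genome were not analysed here.

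Other lists of short genes had the same pattern. Of 77 mitochondrial ribosomal protein genes, 38 were over 2-fold lower and 0 higher (median -0.99), and relative to length class 12 were lower and 2 higher (median -0.46). Mrpl52, Mrps16 and Mrpl54 had the lowest ratios among members with 50 or more counts, at -2.36, -2.15 and -2.12. Of 37 proteasome subunits, 14 were lower and 0 higher (median -0.75, and 0.19 on the TPM scale). Relative to length class 3 were lower and 2 higher (median -0.39). Psmb3, a subunit of the core particle, went from 1793 to 502 normalised counts and Psmd4, a ubiquitin receptor of the cap, from 2341 to 661. In the list of cytosolic ribosomal proteins, 4 genes were compared and most others were not analysed here. Rplp2 of the ribosomal stalk had 11526, 23846, 2920, 1093 and 1738 (-3.03, interval -3.08 to -2.97). Rplp1, its partner, had 23532, 40114, 6229, 2513 and 3590 (-2.69, interval -2.73 to -2.65). The longer Rplp0 of the same stalk was at -0.89, interval -0.93 to -0.84.

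Genes of ribosome biogenesis were not short as a group, with a median length of 2482 bases. Of 20 members, 3 were lower and 0 higher, with a median of -0.68 that was -0.86 relative to length class (6 lower) and 0.44 on the TPM scale (-0.35 after the shift). Fbl, the methyltransferase of box C/D particles, had 1231, 1087, 382, 173 and 264 (-1.51, interval -1.69 to -1.33). Ncl, nucleolin, had 5328, 3630, 2042, 1329 and 1420 (-0.83, interval -0.92 to -0.74). Npm1, a chaperone of ribosome assembly, was at 0.33, interval 0.22 to 0.43 and so did not share the sign of the list.

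**Figure D2:**
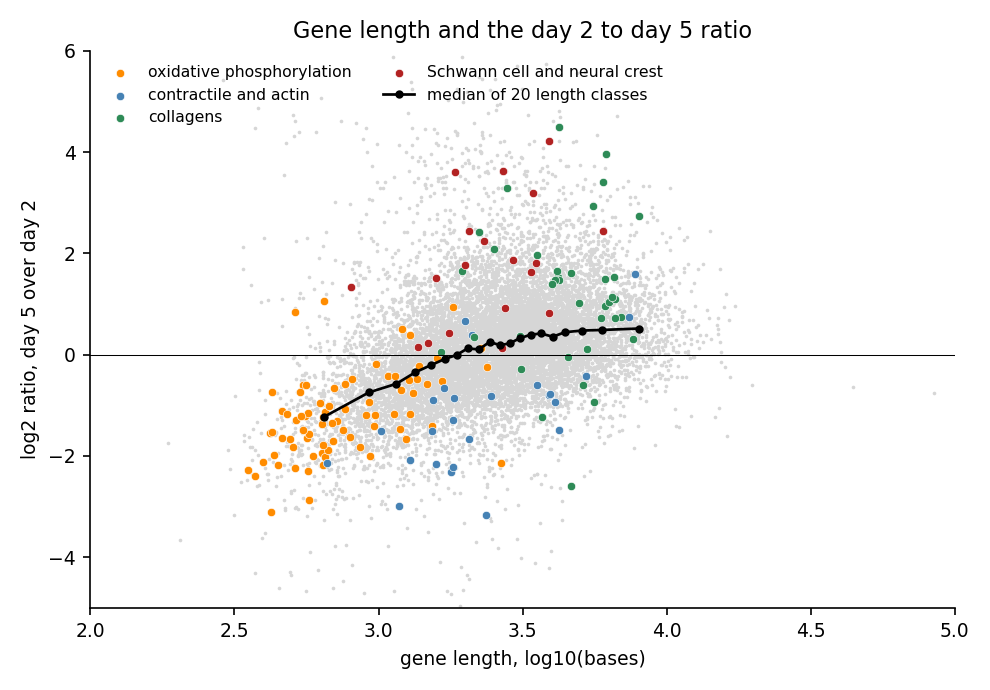
Each grey point is a gene, with log10 of its length in bases on the x axis and its log2 ratio of day 5 over day 2 on the y axis; the black line joins the medians of 20 length classes, coloured points are 4 lists, and ratios beyond -5 or 6 are not drawn. Oxidative phosphorylation genes lie near the line at the short end (median -0.30 from their class), contractile genes lie below it (-1.13) and Schwann cell and neural crest genes above it (1.64).

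Genes of cholesterol synthesis had their highest summed level of the series on day 2, with 5464, 13907, 9426, 8573 and 9099 normalised counts. Between day 2 and day 5, 7 of 25 were over 2-fold lower and 1 higher, with a median of -0.23 that was 0.22 with plain totals and 0.67 on the TPM scale. Relative to length class, 4 were lower and 0 higher. Fdps, which makes farnesyl diphosphate, had 694, 3204, 1136, 524 and 717 (-1.50, interval -1.60 to -1.39). Fdft1, which commits it to sterols, had 418, 1596, 644, 304 and 421 (-1.31, interval -1.45 to -1.17). Mvk, mevalonate kinase, had 189, 563, 208, 167 and 176 (-1.43, interval -1.68 to -1.19). All 3 were highest on day 2 and by day 10 were below their day 0 level. The list as a whole went the other way, with 12 of 25 members over 2-fold higher on day 10 than on day 0 and 0 lower.

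The promoters of this list are shown for a letter pattern they share. CCAAT, the site of nuclear factor Y and, beside sterol regulatory elements, a known part of such promoters, was searched on both strands in the 250 bases before the start. It was found in 16 of the 17 members that matched the table (94.1%), in 40.7% of the compared genes with a window and in 37.5% of all genes of the table. It was found in all 4 of the matched members that were over 2-fold lower and in 12 of the 13 others. The match nearest the start in those 4 genes is in capitals, as CCAAT or as its reverse complement ATTGG.
Mvk, chr5:114444225-114444268, plus strand, 14 bases before the start: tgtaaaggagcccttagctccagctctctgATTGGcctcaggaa
Mvd, chr8:122443423-122443479, minus strand, 27 bases before: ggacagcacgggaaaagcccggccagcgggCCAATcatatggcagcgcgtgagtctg
Pmvk, chr3:89454375-89454439, plus strand, 136 bases before: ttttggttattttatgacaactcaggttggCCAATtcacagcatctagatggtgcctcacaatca
Tm7sf2, chr19:6067863-6067927, minus strand, 47 bases before: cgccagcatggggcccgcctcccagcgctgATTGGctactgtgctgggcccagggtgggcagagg
Mvk, Pmvk and Mvd carry mevalonate through its phosphates to isopentenyl diphosphate, and Tm7sf2 is a sterol reductase. Their log2 ratios were -1.43, -1.20, -1.27 and -1.16. The letters were thus about as common among members that were not lower. The letter patterns searched, all on both strands, were 4: the CArG box, CCAAT, the letters TTTGAA and, as the TATA box, the letters TATAAA, which a CArG box can also hold. They were searched in 43 lists, which gave 172 counts, and the 2 described here were chosen after the counts were seen.

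Genes of cholesterol efflux and lipid transport had the opposite sign, with 7 of 12 over 2-fold higher, 0 lower and a median of 1.16 (0.87 relative to length class). Abca1, the transporter that loads cholesterol onto apolipoproteins, had 16.8, 90.5, 383, 1013 and 333 (2.07, interval 1.66 to 2.54). Pltp, phospholipid transfer protein, had 116, 175, 915, 809 and 865 (2.38, interval 2.10 to 2.71). Apod, a carrier of small lipids, had 13.9, 133, 632, 1249 and 14075 (2.24, interval 1.91 to 2.63). Pltp reached its plateau on day 5, whereas Apod had its largest difference between days 10 and 14. Mylip, a ubiquitin ligase induced by sterols, had 18.9, 19.9, 185, 281 and 175 (3.15, interval 2.35 to 4.24). Apoe, the apolipoprotein of macrophages and glia, had 464, 1742, 3387, 4160 and 8371 (0.96, interval 0.86 to 1.06), just under 2-fold.

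Schwann cell and neural crest genes were higher on day 5 as a group. Of 19 members compared, 13 were over 2-fold higher and 0 lower, with a median log2 ratio of 1.76, and relative to length class the counts were again 13 and 0. Their summed normalised counts were 1055, 1288, 2899, 13169 and 17459, so that day 5 lay at the beginning of a longer increase. Sox10, the transcription factor that defines the neural crest and its glia, had 6.93, 21.7, 280.3, 1055 and 1993 (3.63, interval 2.86 to 4.66), from 12 reads on day 2. Ngfr, the low-affinity neurotrophin receptor, had 34.8, 34.6, 323, 2480 and 4039 (3.19, interval 2.57 to 3.98). Cdh19, a cadherin of Schwann cell precursors, had 3.96, 3.62, 84.9, 841 and 1157 (4.22, interval 2.66 to 7.62), from 2 reads on day 2 and 97 on day 5. Ngfr and Cdh19 were near the same level on days 0 and 2. Foxd3, an early crest factor, had 7.92, 19.9, 97.8, 264 and 703 (2.24, interval 1.41 to 3.34). Tfap2a, another factor of the early crest, had 22.8, 14.5, 55.1, 133 and 172 (1.86, interval 0.86 to 3.20). Erbb3, the neuregulin receptor of Schwann cell precursors, had 8.91, 34.4, 189.9, 943 and 1015 (2.43, interval 1.79 to 3.23). All 6 genes were higher again on day 10.

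Some genes of mature Schwann cells were within 2-fold. Mbp and Pmp22, myelin genes, had log2 ratios of 0.91 and 0.43, and Egr2, the factor that drives myelination, of 0.13. Sox2, whose role the study examined, had 2.97, 7.24, 43.8, 196 and 497 (2.44, interval 1.15 to 4.53), from 3, 4, 50, 274 and 556 reads. Its interval stayed above 2-fold, and its level was higher at each later day. Ntrk2, a receptor for the neurotrophin BDNF, had 3.96, 23.5, 243, 197 and 132 (3.32, interval 2.57 to 4.30). Gfra2, a receptor for a relative of GDNF, had 0, 5.45, 118, 385 and 344 (4.21, interval 2.87 to 6.74). Ntrk2 was highest on day 5 of the series.

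**Figure D3:**
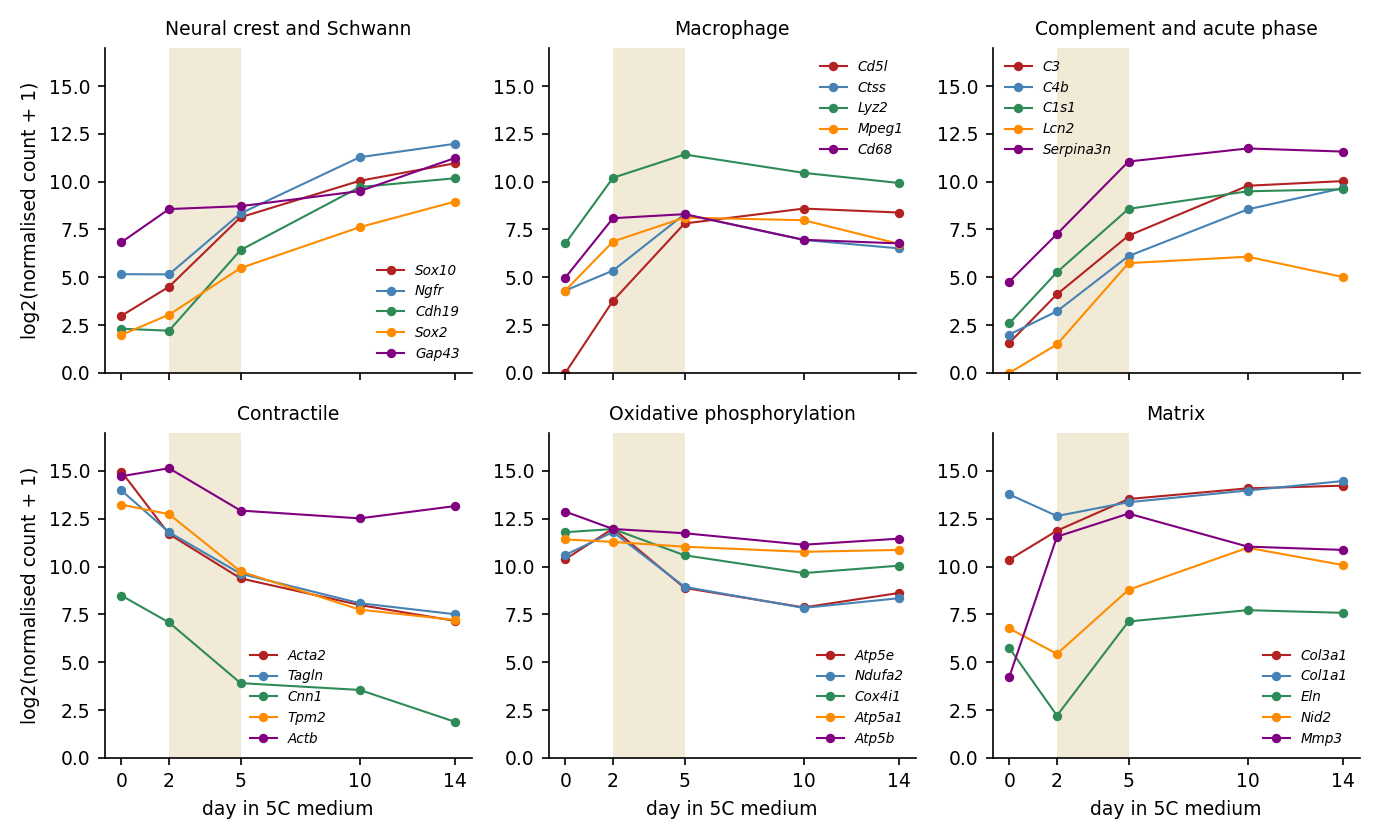
Lines join log2(normalised count + 1) of 5 genes per panel for days 0, 2, 5, 10 and 14 (x axis), with 1 library per day and the day 2 to day 5 step shaded. Sox10, Cdh19, C3 and Eln run upward within the shaded step, Acta2, Tagln, Cnn1 and Tpm2 downward, and Atp5a1 and Atp5b stay nearly level while Atp5e and Ndufa2 run downward.

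Neuronal genes were few in the comparison. Of 19 members, 7 reached 10 counts, of which 4 were over 2-fold higher and 1 lower. Of all 19, 8 were at 0 on day 2 and 8 on day 5, among them Dcx, Rbfox3, Ina, Neurog2 and Neurod1 on both days, and Pax6 had 1 read on each. Tubb3, neuronal tubulin, had 22.1, 39.8, 91.8, 84.2 and 161 (1.19, interval 0.53 to 1.94). Nefm, a neurofilament chain, had 27.1, 27.1, 111, 55.7 and 21.4 (1.99, interval 1.26 to 2.91). Nefl, another, had 1.65, 21.7, 72.6, 17.9 and 4.47 (1.70, interval 0.86 to 2.75). Both neurofilament genes were highest on day 5 of the 5 days. Snap25, a synaptic SNARE, was at 0 on day 2 and at least 3.55-fold higher on day 5. Stmn2, a stathmin of growing neurites, went the other way, with 448, 264, 62.1, 71.4 and 163 (-2.07, interval -2.52 to -1.67). Map1b, a neuronal microtubule protein, was at 0.48, interval 0.07 to 0.91, and the intermediate filament genes Nes and Vim were at -0.24 and -0.59, all within 2-fold. Of 9 astroglial genes, 6 were compared, 2 higher and 1 lower. Gfap, the filament of astrocytes and of some Schwann cells, rested on 7 reads on day 2 and 52 on day 5 (1.77, interval 0.70 to 3.23). Slc1a3, a glutamate transporter, did not differ beyond counting error (0.67, interval -0.47 to 2.06).

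Axon guidance and neural adhesion genes, mostly long, held 17 of 39 members over 2-fold higher and 1 lower (median 0.98), and relative to length class 10 were higher and 2 lower (median 0.46). Chl1, an adhesion molecule of axons and Schwann cells, had 2.97, 29.0, 256, 1185 and 868 (3.10, interval 2.42 to 3.97). L1cam, its relative, had 15.8, 39.1, 269, 1527 and 1377 (2.75, interval 2.13 to 3.45). Both were highest on day 10. Slitrk6, a transmembrane protein of neurite growth, was at 2.36, interval 1.34 to 3.81. Robo1, a receptor of the Slit ligands, had 36.6, 54.3, 121, 161 and 67.9 (1.14, interval 0.58 to 1.77), and its ratio relative to length class was 0.62. Reln, the extracellular guidance protein reelin, had 9, 12, 21, 944 and 493 reads, with no difference beyond counting error between day 2 and day 5 (-0.23, interval -1.33 to 0.92).

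Extracellular matrix genes divided by family. Of 37 collagen genes, 22 were over 2-fold higher and 2 lower, with a median of 1.13 (1.03 with genes at 0 on day 2 set to their lower bound), and relative to length class 18 were higher and 4 lower. Col3a1 of loose connective tissue had 1316, 3756, 11826, 17422 and 19193 (1.65, interval 1.59 to 1.72). Col6a3, a chain of the beaded filaments, had 542, 1445, 4436, 7097 and 4611 (1.62, interval 1.51 to 1.73). Both were higher at each day up to day 10. The basement membrane collagen chains Col4a1 and Col4a2 were higher by log2 ratios of 1.10 and 1.13. Nidogens, which link that collagen to laminin, were higher too. Nid1 had 1069, 329.6, 1453, 3566 and 2142 (2.14, interval 1.92 to 2.37). Nid2 had 108, 42.2, 440.4, 2024 and 1079 (3.35, interval 2.80 to 4.07). Both were lowest on day 2. The chains of collagen I were within 2-fold. Col1a1 had 13963, 6390, 10542, 16110 and 22717 (0.72, interval 0.67 to 0.78). Col1a2 had 7548, 7444, 8061, 10899 and 14138 (0.11, interval 0.06 to 0.17). Col28a1, a collagen of peripheral nerve, went from 1 to 71 reads (4.49, interval 2.58 to 10.43). Col2a1, the collagen of cartilage, was lower, with 599.7, 157, 25.4, 6.21 and 2.68 (-2.59, interval -3.29 to -2.01).

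Among 26 matrix glycoproteins and crosslinkers, 6 were higher and 2 lower (median 0.07, and -0.19 relative to length class). Fn1, fibronectin, had 13458, 14421, 20157, 22611 and 9373 (0.48, interval 0.45 to 0.52), within 2-fold. Of 19 matrix proteases and inhibitors, 9 were higher and 2 lower (median 0.83, and 0.38 relative to length class). Mmp2, a gelatinase, had 955, 1795, 5770, 9067 and 14494 (1.68, interval 1.59 to 1.78). Mmp3, stromelysin-1, had 17.8, 3025, 6979, 2109 and 1870 (1.21, interval 1.13 to 1.28). Mmp13, a collagenase, had 6.93, 192, 712, 742 and 408 (1.89, interval 1.60 to 2.20). Mmp3 was lower again on day 10 whereas Mmp2 was higher still. Timp1, an inhibitor of these enzymes, was lower on day 5, with 4133, 7209, 2059, 242 and 524 (-1.81, interval -1.88 to -1.73), and Timp2 was within 2-fold (-0.26). Spp1, osteopontin of bone and macrophages, had 309, 17547, 41767, 7994 and 4055 (1.25, interval 1.22 to 1.28), with its peak on day 5.

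Complement genes were higher on day 5 in 9 of 14 members and lower in 0, with a median log2 ratio of 1.43, and relative to length class the counts were again 9 and 0. C3, the central component, had 1.98, 16.3, 144, 881 and 1044 (3.06, interval 2.18 to 4.29). C4b, a component of the classical pathway, had 3.02, 8.34, 68.0, 374 and 810.0 (2.89, interval 1.63 to 4.58). C1s1, a serine protease of the same pathway, had 5.03, 37.5, 381, 721 and 777 (3.31, interval 2.69 to 4.03). All 3 were higher on day 2 than on day 0 and higher again on day 10. Cfb, factor B, was at 0 on day 2 and at least 3.65-fold higher on day 5. C1qa, C1qb and C1qc, made by macrophages, were within 2-fold, at -0.39, 0.02 and -0.39. Serpina3n, an acute phase protease inhibitor, had 26.4, 152, 2123, 3408 and 3044 (3.79, interval 3.49 to 4.14). Saa3, a serum amyloid, had 0.990, 7.24, 172, 464 and 252 (4.39, interval 3.19 to 6.46). Both followed the same course as C3 up to day 10.

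In the LIF and STAT3 list, 6 of 17 genes were over 2-fold higher and 0 lower (median 0.52), and 5 and 2 relative to length class (median 0.46). Lifr, the LIF receptor, had 33.6, 21.8, 172, 351 and 265 (2.92, interval 2.14 to 3.96). Il6st, its signalling partner, had 517, 413, 690.5, 1845 and 1218 (0.74, interval 0.53 to 0.96). Stat3 had 372, 363, 679, 1005 and 764 (0.90, interval 0.68 to 1.13), just under 2-fold. All 3 were lowest on day 2 and highest on day 10. Socs3, a feedback inhibitor of the pathway, had 42.5, 183, 544, 405 and 1023 (1.57, interval 1.27 to 1.89). Lcn2, a secreted siderophore-binding protein known as a STAT3 target, had 1 read on day 2 and 60 on day 5 (4.25, interval 2.33 to 10.19). Not every known target was higher, as in Cebpb, a transcription factor of the acute phase (-0.91, interval -1.21 to -0.61). In antigen presentation by MHC class I, 4 of 14 genes were higher and 2 lower, and 6 and 0 relative to length class. H2-D1, a heavy chain, had 907, 785, 3003, 3166 and 5711 (1.93, interval 1.79 to 2.08). B2m, the light chain, had 2013, 1228, 4391, 3849 and 4846 (1.84, interval 1.72 to 1.96). Both were lower on day 2 than on day 0. Interferon-stimulated genes were higher in 8 of 26 members (30.8%, against 18.3% of all genes) and lower in 1. Ifit2, an antiviral RNA-binding protein, was at 2.23, interval 1.26 to 3.57 and Irf1, a transcription factor, at 2.03, interval 1.44 to 2.73. The 3 members with the highest summed counts, Bst2, Ifi27 and Ifi35, were at 0.18, -0.98 and -1.10.

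Macrophage genes marked cells other than fibroblasts in both libraries. Of 24 compared, 12 were over 2-fold higher on day 5 and 1 lower (median 1.08, and 12 and 1 relative to length class). The summed level of all 26 members was 387, 2883, 5384, 3338 and 2363 normalised counts, with no member at 0 on day 2 or day 5. Cd5l, secreted by tissue macrophages, had 0, 12.7, 224, 385 and 333 (4.04, interval 3.08 to 5.47). Ctss, cathepsin S, had 18.8, 39.8, 314, 123 and 90.3 (2.95, interval 2.36 to 3.67). Lyz2, lysozyme, had 108, 1177, 2738, 1407 and 974 (1.22, interval 1.10 to 1.34). Ctss and Lyz2 peaked on day 5, as the sum did. Adgre1, which encodes F4/80, had 2.97, 14.5, 62.1, 72.6 and 35.8 (2.03, interval 1.05 to 3.37). Csf1r, the growth factor receptor of the lineage, had 41.4, 116, 112, 70.5 and 60.5 (-0.05, interval -0.49 to 0.41), and Cd68 was within 2-fold (0.21). Itgam was lower on day 5, with 61.9, 177, 17.6, 6.80 and 7.21 (-3.26, interval -4.11 to -2.64), while Itgb2, its partner chain, was at 0 on day 2 and had 76 reads on day 5, at least 12.2-fold higher. The macrophage level was higher over the same interval as the complement, lipid transport, MHC class I and Spp1 levels above, and its part in those results was not tested.

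Markers of endothelium, epithelium and skeletal muscle were low or lower on day 5. The summed level was 209 normalised counts on day 2 and 61.3 on day 5 for 9 endothelial genes, 568 and 158 for 14 epithelial genes, and 579 and 231 for 18 skeletal muscle genes. Cldn5 of endothelium, Ocln and Grhl2 of epithelium and Myod1 and Myf5 of muscle had 0 counts on both days, and Epcam, an epithelial adhesion molecule, had 1 and 4 reads. Krt18, a keratin of simple epithelia that cultured fibroblasts also express, was at -2.14, interval -2.57 to -1.76. Of the 2 erythroid genes compared 1 was lower and 1 higher. The globin gene Hba-a1 had 10 reads on day 2 and 0 on day 5, and Alas2, the erythroid enzyme of heme synthesis, had 1 and 30 (3.27, interval 1.27 to 9.21). Fibroblast genes were mixed, with 2 of 14 higher and 3 lower (median 0.29). Pdgfra, a receptor of mesenchymal cells, had 94.0, 398, 642, 932 and 513 (0.69, interval 0.47 to 0.91). Pdgfrb, its relative, had 1167, 259, 469.8, 551 and 704 (0.86, interval 0.59 to 1.14). Thy1, a surface glycoprotein of fibroblasts, had 744, 1086, 419, 229.9 and 284 (-1.37, interval -1.55 to -1.20). The defining genes of fibroblasts were thus present on both days.

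Growth factor pathways held members of both signs. Of 15 genes of the insulin and IGF axis, 7 were higher and 2 lower (median 0.73), and 3 and 1 relative to length class. Igf2, the fetal growth factor, had 14293, 7273, 16569, 10932 and 10125 (1.19, interval 1.14 to 1.24). H19, the imprinted non-coding RNA next to it, had 15353, 25061, 52552, 24551 and 29503 (1.07, interval 1.04 to 1.09). Igf2r, the receptor that clears Igf2, had 1175, 1369, 3157, 3477 and 1532 (1.20, interval 1.09 to 1.32). Igf2 and H19 were highest on day 5 of the series. Igfbp5, an IGF-binding protein, had 183, 604, 2555, 8327 and 5867 (2.08, interval 1.92 to 2.25), whereas Igfbp6, another, was at -1.45, interval -1.74 to -1.17. Irs2, an adaptor of the insulin receptor, was at 0 on day 2 and at least 4.35-fold higher on day 5. Irs1, the related adaptor, was at -1.78, interval -2.66 to -1.04. Gm9747, which was higher on day 5 (6.79), overlaps Irs1, so the split of reads between these genes is uncertain.

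Of 20 genes of FGF signalling and feedback, 7 were higher and 1 lower (median 0.58), and 5 and 2 relative to length class (median 0.25). Fgfr1, a receptor for bFGF, had 599, 435, 1006, 892 and 666 (1.21, interval 1.01 to 1.42). Spry1, a feedback inhibitor, was at 2.66, interval 1.84 to 3.67, and Spred2, another, at 1.73, interval 1.02 to 2.59. Dusp6, a phosphatase induced by FGF, was within 2-fold (0.48, interval 0.28 to 0.69), and Dusp5, a related phosphatase, was lower with 519, 340.1, 71.8, 22.1 and 94.8 (-2.23, interval -2.64 to -1.86). The feedback genes of the pathway thus did not share a sign. In the TGF-beta list, 7 of 14 were higher and 1 lower (median 1.01), and 5 and 1 relative to length class (median 0.53). Tgfb2, a ligand, had 146, 18.1, 111, 187 and 84.0 (2.55, interval 1.69 to 3.71). Tgfbr1, a receptor, had 49.5, 47.0, 164, 282 and 183 (1.78, interval 1.20 to 2.45). Both were higher on day 5 than on day 2 and highest on day 10. In the Notch list, 6 of 14 were higher and 2 lower (median 0.57), and 5 and 1 relative to length class (median 0.18). Notch1, a receptor, had 39.8, 25.9, 123, 487 and 452 (2.20, interval 1.49 to 3.19). Heyl, a target, was at 0 reads on day 2 and 60 on day 5, at least 9.67-fold higher. Hes1, another target, was lower (-1.25, interval -1.55 to -0.97).

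Transcription factors of the epithelial-mesenchymal transition did not move together. Snai1 had 142, 68.8, 189, 102 and 97.4 (1.45, interval 0.96 to 2.00) and was the 1 of 6 over 2-fold higher. Twist2 had 272, 222, 90.8, 39.9 and 40.8 (-1.28, interval -1.68 to -0.90) and was the 1 over 2-fold lower, although it was at -0.94 relative to its length class. Snai2, Zeb1, Zeb2 and Twist1 were within 2-fold, at -0.06, 0.28, 0.81 and 0.28. Of 9 cadherins compared, 6 were higher and 1 lower. Cdh2, N-cadherin, had 755, 317, 303, 1245 and 612, with no difference beyond counting error (-0.06, interval -0.33 to 0.21). Cdh11 of mesenchyme had 497, 154, 681, 1157 and 726 (2.14, interval 1.82 to 2.49). Both were lower on day 2 than on day 0 and highest on day 10. Bcl2, a survival gene, rested on 9 and 26 reads (0.46, interval -0.66 to 1.76), and its interval held no change.

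Cell cycle genes differed little as groups. Of 30 mitosis genes, 7 were higher and 4 lower (median 0.24, and -0.04 relative to length class), and their summed level was 2106, 3895, 3856, 2542 and 542 normalised counts. Mki67, the proliferation marker, was at 0.01, interval -0.26 to 0.28. Top2a, the topoisomerase of dividing cells, was at 1.12, interval 0.80 to 1.46, and Bub1, a checkpoint kinase, at 1.68, interval 0.77 to 2.86. Pttg1, securin, was lower (-1.58, interval -2.02 to -1.18), but it was at -0.36 relative to its length class. Of 34 DNA replication genes, 4 were higher and 2 lower, with a median of -0.14 that was 0.31 with plain totals and 0.59 on the TPM scale. Mcm4 of the replicative helicase was at 1.82, interval 1.18 to 2.58 and Rfc2 of the clamp loader at -1.63, interval -1.92 to -1.35. Endoplasmic reticulum chaperones were also near level, with 2 of 20 higher, 1 lower and a median of -0.01 that was 0.45 with plain totals and 0.86 on the TPM scale.

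**Figure D4:**
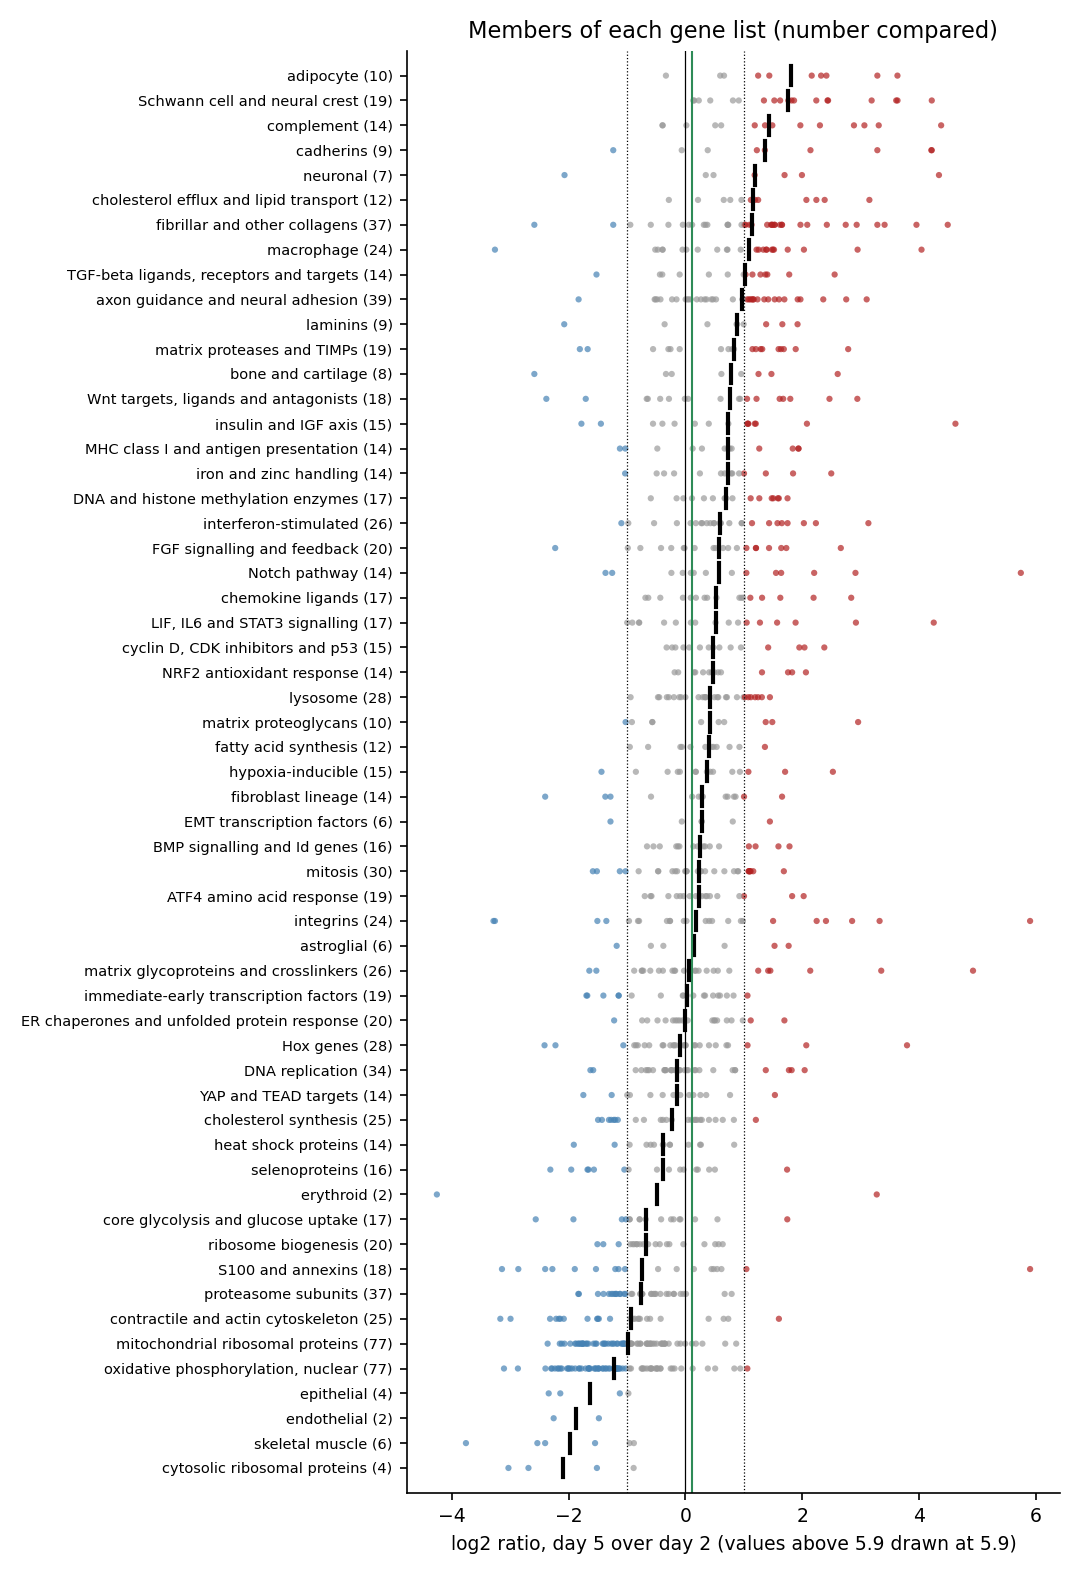
Each point is 1 member of a gene list, placed by its log2 ratio of day 5 over day 2, with red and blue for over 2-fold higher and lower, a black bar at the median of the list and a green line at the median of all genes (0.12). Of 57 lists, 36 had a median above that of all genes and 21 below with TMM scaling; the medians of 12 lists, among them contractile, proteasome, S100 and annexin, glycolysis and ribosome biogenesis, change sign on the TPM scale and those of 7 lists, among them cholesterol synthesis, with plain totals.

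Most genes of the step, but not all, were past 2-fold in the same direction over the longer course. Day 10 against day 0 shares no library with day 5 against day 2. Of the 2246 genes higher on day 5, 1441 (64.2%) were over 2-fold higher on day 10 than on day 0, against 26.0% of all genes compared, and 58 (2.58%) were over 2-fold lower. Of the 1495 lower genes, 1075 (71.9%) were over 2-fold lower on day 10 than on day 0, against 22.7% of all genes, and 60 (4.01%) were over 2-fold higher. The median log2 ratio of day 10 over day 0 was 1.53 in the higher genes, -1.69 in the lower genes and 0.07 in all. Length moved with this comparison too, with a median of -1.21 in the shortest class of genes and 0.89 in the longest. When both ratios were taken relative to their length class, 62.7% of the higher genes were again higher (21.6% of all genes) and 52.2% of the lower genes again lower (17.3% of all).

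Between day 10 and day 14 few genes moved, 3.76% of all compared over 2-fold higher and 6.76% lower. The genes higher in the step had a median log2 ratio of -0.25 from day 10 to day 14 and those lower in the step of 0.43, against 0.04 for all genes, with 12.8% of the first group over 2-fold lower and 9.36% of the second over 2-fold higher. Length classes moved in the same sense there, with a median of 0.41 for the shortest and -0.39 for the longest genes.

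**Figure D5:**
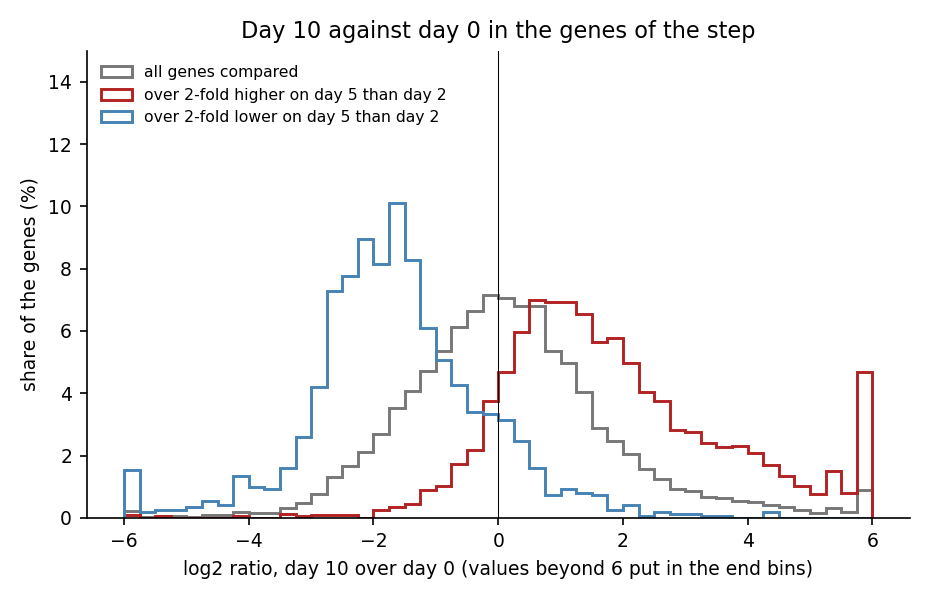
The x axis is the log2 ratio of day 10 over day 0 in bins of 0.25 and the y axis the share of genes in each bin (%), for all genes compared (grey) and for those over 2-fold higher (red) or lower (blue) on day 5 than on day 2. The medians are 0.07, 1.53 and -1.69.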

How the data were processed

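RNA sequencing libraries (TruSeq, total RNA) of MEFs for days 0, 2, 5, 10 and 14 were scaled together, 1 per day. The authors deposited expected counts, TPM and FPKM per gene with an effective and a full length. Per the submitters' processing notes, Bowtie, RSEM and mm10 were used, and whether counting used strand is not given in the sources used here. The deposited expected counts were used for all ratios, the deposited TPM values for 1 alternative, and the deposited FPKM values were not used. RSEM divides reads between similar genes, which adds error that the intervals do not hold.

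Counts were scaled with TMM (edgeR 4.0.16, R 4.3.3) over all 5 libraries, genes with 10 or more expected counts in either library were kept, and log2 ratios were formed with 1 added to each normalised count. The threshold was 2-fold and no p-value was computed. Python 3.11.15 with numpy 2.4.6, pandas 2.3.3, scipy 1.17.1 and matplotlib 3.10.9 computed intervals and plots. Alternatives were DESeq2 1.42.0 size factors, TMM over both libraries alone, plain totals, TPM, library sizes without Gm42418 and Lars2, an added count of 5, no filter, a filter of 50 counts, a 4-fold threshold, intervals and centring on 20 length classes. The scripts were tested on simulated data. Ensembl identifiers and positions follow mm10, and promoter sequences come from RefSeq (GRCm38.p6).

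The genes, lists and tests were chosen with earlier results of these data known. Named genes were the 15 largest and 15 smallest ratios with 100 or more counts, in each list the 3 members with the highest summed count and the 3 with the largest ratio of either sign at 50 or more counts, and a set the study examined. The following were named as examples after their values were seen: Abca1, Actg2, Adgre1, Atp5g2, Atp5l, C1qa, C1qb, C1qc, Cebpb, Cfb, Cldn5, Cnn2, Col4a1, Col4a2, Col6a3, Csf1r, Egr2, Erbb3, Fhl2, Foxd3, Gfra2, Gm2260, Gm9825, Grhl2, Ina, Irs1, Irs2, Mbp, Mvd, Myf5, Myl9, Mylk, Myod1, Neurog2, Ntrk2, Pdgfra, Pdgfrb, Pmvk, Pparg, Rbfox3, Saa3, Serpina3n, Snap25, Srf, Tagln, Tfap2a, Tm7sf2, Twist1 and Vcl. Some single genes are not reported here. Most cytosolic ribosomal protein genes and all genes of the mitochondrial genome were not analysed here. The labels and the study's methods differ in the number of cells per well and in the name of the medium.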

Additional observations from a re-analysis of the deposited data

How the results depend on the processing

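Each value rests on 1 library per day, so leaving out a replicate was not possible and counting error is the only error known. No paired analysis was possible because the labels give no replicate numbers and each day has 1 library. Against 2246 genes higher and 1495 lower, DESeq2 size factors gave 2155 and 1606, TMM over both libraries alone 2231 and 1487, an added count of 5 in place of 1 gave 1933 and 1377, and requiring in addition an interval without 0 gave 1911 and 1461. Plain library totals gave 3902 higher and 754 lower, and TPM values 5626 and 391. With no filter on low counts, 3315 were higher and 2988 lower of 17391 genes, and with 50 or more counts 1358 and 1019 of 8882. At 4-fold, 639 were higher and 302 lower. Ratios relative to length class, an alternative chosen after seeing the data, gave 1844 and 1206. The median of 12 gene lists changed sign with TPM values, of 7 with plain totals, of 8 relative to length class, of 4 with 50 or more counts and of 1 with DESeq2 size factors. The depth of the day 2 library, 2253748 counts, limited genes of few reads: Eln, Cdh19, Col28a1 and Lcn2 rested on 1 or 2 reads there. The cause of the shift between scalings was not tested.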

Other observations

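Adipocyte genes were higher on day 5 in 7 of 10 members compared and lower in 0, with a median log2 ratio of 1.80 (1.16 with genes at 0 on day 2 set to their lower bound). Fabp4, a fatty acid carrier of adipocytes and macrophages, had 61.4, 146, 398, 847 and 1676 normalised counts for days 0, 2, 5, 10 and 14 (1.44, interval 1.10 to 1.80). Lpl, lipoprotein lipase, had 85.0, 189, 450.3, 1975 and 2279 (1.24, interval 0.94 to 1.56). Cd36, a fatty acid receptor that macrophages also carry, had 11.9, 43.4, 198, 396 and 408 (2.16, interval 1.58 to 2.86), and Pparg, the factor that drives fat cell formation, had 39.6, 7.24, 42.9, 70.7 and 65.2 (2.41, interval 1.12 to 4.50). The summed level of the list was 471, 632, 1454, 4168 and 5883, so that most of it came after day 5. Of 12 fatty acid synthesis genes, 1 was higher, Fads2 (1.36, interval 0.98 to 1.77), and 0 lower, with a median of 0.40 that was -0.08 relative to length class.

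Iron and zinc handling held 4 of 14 genes higher and 1 lower. Cp, ceruloplasmin, had 4.95, 21.7, 127, 238 and 136 (2.50, interval 1.70 to 3.53), Slc40a1, the iron exporter ferroportin, had 1.98, 30.8, 113, 128 and 103 (1.84, interval 1.14 to 2.70), and Ftl1, ferritin light chain, had 48370, 55242, 27012, 9070 and 8776 (-1.03, interval -1.06 to -1.01). Among 16 selenoproteins, 6 were lower and 1 higher, with a median of -0.38 that was 0.05 with plain totals and 0.43 on the TPM scale, and 2 were lower and 2 higher relative to length class. Gpx1 and Gpx4, glutathione peroxidases, were at -1.57, interval -1.65 to -1.48 and -1.95, interval -2.06 to -1.85, and Selenop, the plasma carrier of selenium, was the member that was higher (1.74, interval 1.56 to 1.94). Of 17 genes of DNA and histone methylation and histone deacetylation, 7 were higher and 0 lower (4 and 1 relative to length class), with Dnmt1, the maintenance methyltransferase, at 1.60, interval 1.18 to 2.06 and Hdac1 at 1.75, interval 1.29 to 2.25. Of 14 NRF2 targets, 4 were higher and 0 lower, with Gclc, the rate-limiting enzyme of glutathione synthesis, at 2.06, interval 1.44 to 2.82. Of 19 immediate-early genes, 5 were lower and 1 higher, with a median of 0.02 that was -0.01 with DESeq2 size factors and -0.15 relative to length class, and Fosb was at -1.69, interval -2.09 to -1.33 and Klf2 at -1.68, interval -2.35 to -1.08. Hox genes were lower in 3 of 28 members and higher in 3. Wnt genes were higher in 7 of 18 members and lower in 2, and 5 and 4 relative to length class. The secreted antagonist Sfrp2 was at 2.47, interval 1.81 to 3.29 and the ligand Wnt11 at -2.38, interval -2.74 to -2.04.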
